A study of Mus musculus with 4 samples.

Results

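Immune checkpoint ligands and phagocytosis signals are surface or secreted proteins by which a cell tells T cells, natural killer (NK) cells and macrophages how to treat it. The 10 genes described here (Vsir, Cd274, Cd80, Pvr, Lgals9, Lgals1, Havcr2, Cd47, Sirpa and Cd200) were taken by name, and a position belongs to a gene when the gene is among the comma-separated labels of that position in the deposited table. By this rule 8 of the 10 genes had a position, 1081 of the 506952 listed in all. Checkpoint ligands bind receptors on lymphocytes and dampen or, for some, raise their activity; CD47 on a cell meets SIRPα on a phagocyte and restrains engulfment. In leukemia both kinds of signal are known for letting blasts escape immune attack.

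RNA was measured in cultured mouse acute myeloid leukemia cells carrying NRAS and AE9a (a shortened AML1-ETO fusion), with 2 WT libraries and 2 Tet2 KO libraries, the latter lacking the dioxygenase TET2 that oxidises 5-methylcytosine. The medium of both genotypes held the cytokines SCF (50 ng/ml), IL-6 (10 ng/ml) and IL-3 (10 ng/ml), with puromycin (2 µg/ml) and G418 (1 mg/ml) as selection drugs. Poly(A) RNA was treated with bisulfite, which converts unmethylated cytosine so that it reads as thymine. The level is the unconverted fraction, that is, reads with cytosine over the reads used at a position. Whether the replicates came from separate cultures, and whether the lines are single clones, is not in the labels, so the spread between replicates may be technical. The table lists positions that passed the authors' test in KO libraries and that its name calls unique to KO; it has no WT column and no column for a single library. No difference between KO and WT could therefore be computed for any gene, and every value below describes the KO list. The depth of a library is not in the table; 70000000 reads per sample were planned, and each listed position had from 10 to 721 covering reads.

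Among blood and stromal cell type markers, those with sites were mostly of myeloid blasts. Sites were listed in 12 of 14 myeloid and blast genes, among them Mpo (217 sites), Cd34 (150) and Kit (106). Of 9 markers of lymphocytes of the T and NK lineages 1 had sites (Nkg7, 56 sites; Cd3e, Cd3d and Cd8a had 0), as did 0 of 6 B cell markers, 1 of 7 erythroid and platelet markers and 2 of 6 stromal markers. Of the markers known to lie on the plus strand, 9 of 9 myeloid, 1 of 4 T and NK and 0 of 1 B cell genes had sites. So did 1 of 3 erythroid and platelet and 1 of 2 stromal genes. All 6 pancreatic islet hormone genes had sites, 593 together, and their part in the results was not tested. In Ins2, 123 of 139 sites were called in both replicates (median coverage 79), and in Gcg 142 of 228 (54). Sst and Ppy had 0 such sites, and Mpo had 45 of 217 (17). In bulk RNA, fewer cells of a type and less RNA per cell cannot be told apart, and the table does not give the coverage of genes without a listed site.

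The reference sequence was available for stretches near gene starts, and 5 Lgals1 positions and 4 positions just upstream of a Cd47 start fall in such stretches. They are shown because they let the listed positions be read against the genome. Sequences are from RefSeq, build GRCm38.p6, whose coordinates are those of mm10, plus strand, in lower case with every listed position in capitals. The Lgals1 stretch is chr15:78928091-78928210, inside the Lgals1 span and beside the start of Gm30368, a gene of the opposite strand. The Cd47 stretch is chr16:49855481-49855629, upstream of a Cd47 start; its 4 positions lie inside the RefSeq span of Cd47 but carry no gene label.
Lgals1 stretch: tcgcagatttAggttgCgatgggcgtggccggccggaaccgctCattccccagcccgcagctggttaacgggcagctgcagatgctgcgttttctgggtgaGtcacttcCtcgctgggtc
Cd47 start stretch: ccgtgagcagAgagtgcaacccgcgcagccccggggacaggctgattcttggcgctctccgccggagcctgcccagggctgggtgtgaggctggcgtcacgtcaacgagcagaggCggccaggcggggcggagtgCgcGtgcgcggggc

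In the Lgals1 stretch 3 of the 5 listed positions are cytosines in the reference, 1 is an adenine and 1 a guanine. Of its 35 cytosines 32 were not listed. Listed positions are called unique to KO and have at least 10 covering reads and a level of at least 0.2. An unlisted cytosine can therefore not be read as unmethylated. The cytosine at 78928107 was called in both replicates, with levels of 0.563 and 0.643. The cytosine at 78928134 had a level of 0.429 from 6 of 14 reads used (Wilson 95% interval 0.214 to 0.674), out of 41 covering reads. The cytosine at 78928200 had 9 of 12 (0.468 to 0.911). The adenine at 78928101 was listed with 8 of 10 reads as cytosine, and the guanine at 78928192 with 6 of 18. In the Cd47 stretch 2 of the 4 listed positions are cytosines. These were 49855596, with 9 of 15 reads used (level 0.6), and 49855616, with 9 of 13 (level 0.692). The other positions are an adenine and a guanine, the latter at 49855619 with 45 of 57 reads (level 0.789, interval 0.667 to 0.875). The adenine, at 49855491, was the only position of this stretch called in both replicates. Its levels were 0.431 and 0.667 at a mean of 46 covering reads.

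The same mixture held across all stretches near gene starts, so it bears on how every member's sites are read. Of 5942 plus-strand listed positions in such windows, 51.9% were cytosines, 30.01% guanines, 18.1% adenines and 0% thymines, whereas thymine made up 19.2% of the bases of those windows. The absence of thymine was also used to choose the base numbering, so it is not a separate result. The reference base followed the share of covering reads that entered the level. Below 75% of reads used, 2212 of 2218 positions (99.7%) were cytosines. At 75% or more, 872 of 3724 (23.4%) were. No position on G or A called in 1 replicate had under 80% of its reads used. The reference base at the members' other positions is not in the tables used here, and whether the relation holds away from gene starts was not tested. The share of reads used is therefore given for the members' sites by gene and for several named positions, with positions under 75% called low-use positions. Near gene starts, 9.36% of positions with 20 or more reads used were cytosines. A level at a member's well-read position can therefore not be taken as that of a cytosine.

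**Figure D1:**
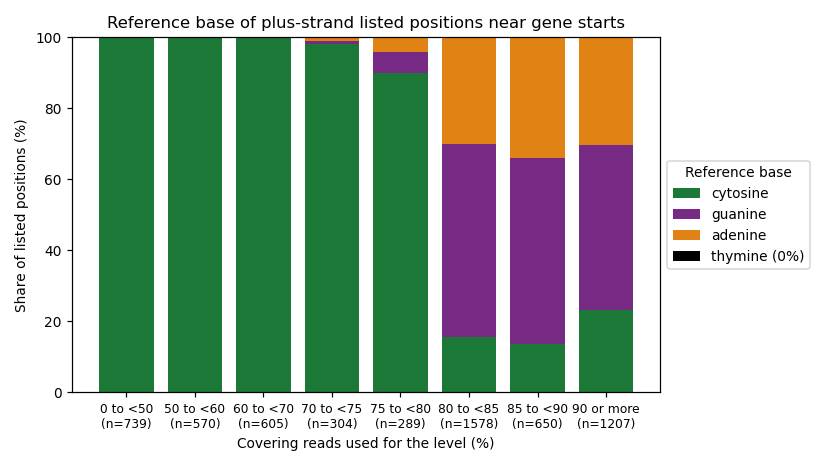
Stacked bars give the share (%) of plus-strand listed positions in windows near gene starts whose reference base is cytosine, guanine, adenine or thymine, by the percentage of covering reads used for the level; n is the number of positions. Cytosine makes up 100% below 70% of reads used and 15.5% from 80% to under 85%, and thymine 0% throughout.

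Among the 10 genes, the count of sites ran from 0 to 435. Cd47 had 435, Sirpa 258, Cd274 147, Vsir 119, Havcr2 72, Lgals1 38, Cd80 10, Lgals9 2, and Pvr and Cd200 0. Cd47 and Sirpa, a ligand and its receptor, together held 64.1% of the members' sites. For comparison, 34.2% of 21900 protein-coding genes had a site. That share was 51.4% of plus-strand and 18.5% of minus-strand protein-coding genes whose strand the promoter table gives. The 7 genes with 10 or more sites are on the plus strand, and the 2 sites of Lgals9 are on the minus strand. Cd200 is a minus-strand gene, and the strand of Pvr is not in the tables used here. Among genes with any site, the median count was 1 on the minus strand (quartiles 1 and 2) and 68 on the plus strand (34 and 114). The low counts of Lgals9 and Cd200 go with the minus strand, whose part was not tested. High counts occur on that strand too, with 139 sites in Ins2 and 228 in Gcg. Cd47 had more sites than 99.7% of the 5469 plus-strand genes with 5 or more sites, Sirpa more than 97.1%, Cd274 more than 84.4% and Vsir more than 75.5%. Cd80 had more than 3.95%.

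The median level over the 1081 sites was 0.5 (quartiles 0.349 and 0.7), against 0.526 over all listed sites, at a median of 16 covering reads against 18. Gene medians ran from 0.478 in Cd274 to 0.6 in Lgals1 among the 7 plus-strand genes. Over plus-strand genes with 5 or more sites, the quartiles of the gene median were 0.5 and 0.583. Cd274 lay below the lower quartile and Lgals1 above the upper; Havcr2 and Cd47 were at 0.5, Vsir at 0.545, Cd80 at 0.55 and Sirpa at 0.571. The level has a floor of 0.2 in the table, so no gene median can be lower. Low-use positions made up 288 of the 1081 sites (26.6%), against 32.0% of all plus-strand sites. Their median level was 0.455, against 0.526 at the members' other positions, and their median coverage was 22 reads against 14. In Cd274, Cd47, Cd80 and Havcr2, sites with 1 call had at least 10 reads used. A low share of reads used there requires more covering reads, so the difference in coverage follows in part from the definition. Over all plus-strand sites the median level was 0.533 at low-use positions and 0.529 at the others. The lower level at the members' low-use positions was thus not seen in the whole list.

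**Figure D2:**
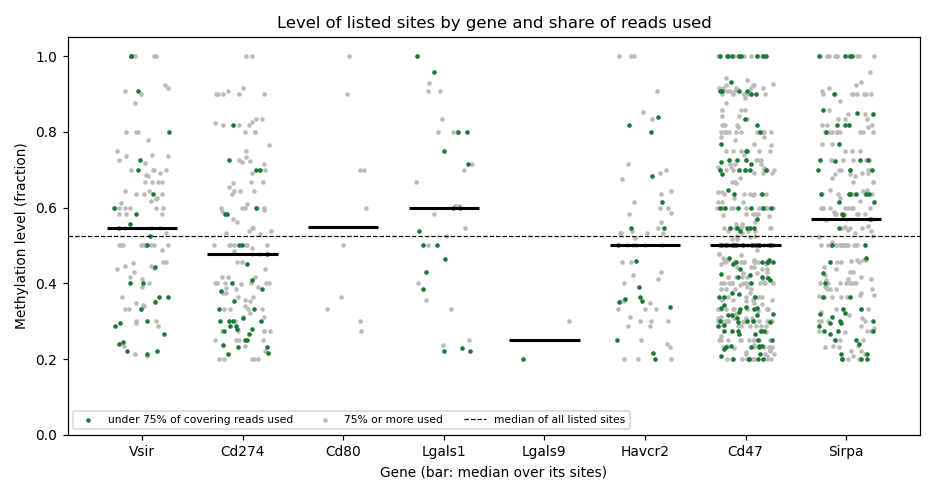
Each point is a listed position, its level (fraction of reads used with cytosine) on the vertical axis and its gene on the horizontal axis. Green marks positions where under 75% of the covering reads were used. Bars mark gene medians, from 0.25 in Lgals9 to 0.6 in Lgals1, around the dashed median of all listed sites at 0.526.

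A call in both KO replicates was listed for 112 of the 1081 sites (10.4%), against 14.2% of all listed sites. By gene the share was 14 of 72 in Havcr2 (19.4%, exact Clopper-Pearson 95% interval 11.1 to 30.5) and 7 of 38 in Lgals1 (18.4%, 7.74 to 34.3). It was 19 of 147 in Cd274 (12.9%, 7.97 to 19.5), 40 of 435 in Cd47 (9.20%, 6.65 to 12.3), 22 of 258 in Sirpa (8.53%, 5.42 to 12.6) and 10 of 119 in Vsir (8.40%, 4.10 to 14.9). Cd80 had 0 of 10 (upper bound 30.9), and Lgals9 0 of 2. The intervals for Cd47 and Sirpa lie below 14.2%, and those of Havcr2, Lgals1, Cd274 and Vsir include it. They treat sites as independent, which neighbouring sites on the same reads are not, and cover counting error only. Over plus-strand genes with 5 or more sites, the lower quartile of this share was 9.80%. Cd47, Sirpa, Vsir and Cd80 lay below that quartile. Median coverage was 16 reads in Cd47, 15 in Sirpa and 23 in Vsir, and coverage was not accounted for. Low-use positions were called in both replicates at 18.4% in the members and 22.7% among all plus-strand sites. The other positions were called in both at 7.44% and 10.3%. In Havcr2, 9 of 18 low-use positions were called in both.

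At the 112 shared sites the replicates differed by a median of 0.088, against 0.1 over all shared sites. In 14 of them the difference was over 0.2. The largest was at 49867904 in Cd47, with levels of 0.333 and 0.769 at a mean of 18 covering reads. Cd274 followed at 29380873, with 0.455 and 0.875. Among shared sites, a difference in level of 0.1 is thus about as large as the median gap between replicates. The gap is known only where both replicates passed the authors' call, so it may understate the spread. Sites called in 1 replicate have no measured gap.

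**Figure D3:**
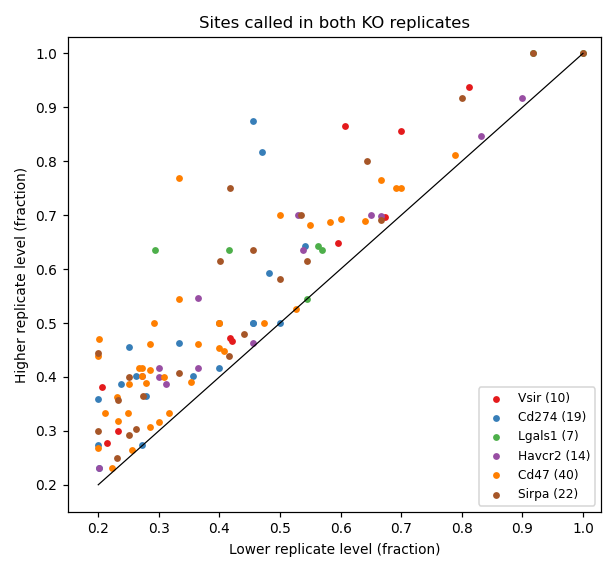
The horizontal axis gives the lower and the vertical axis the higher replicate level (fraction) of each of the 112 sites called in both KO replicates, coloured by gene with the number of sites; which replicate is the lower is not recorded. The line marks equal levels, points lie on or above it by construction, and the widest gap is 0.333 against 0.769 in Cd47.

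Of the members, Vsir had the highest median coverage over its sites, although the most covered sites of Lgals1, Sirpa and Cd47 were deeper than any of Vsir. Vsir encodes VISTA, a checkpoint protein of myeloid cells that restrains T cells. It spans chr10:60346851-60430294 in RefSeq, and its 119 labelled sites lie between 60357878 and 60372603, in 14 groups separated by more than 200 nt. A group of 42 sites covers 1248 nt from 60369498, and one of 28 sites covers 1216 nt from 60371091. Another 25 positions downstream of the last of them, up to 60384508, lie in the RefSeq span without a gene label. Covering reads at Vsir sites had a median of 23, more than in 88.6% of the plus-strand genes compared, and reached 100.

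Levels at Vsir sites ran from 0.208 to 1, and 6 sites were at 1. At 60357878, the most covered site, 7 of 29 reads used were unconverted (level 0.241, Wilson interval 0.122 to 0.421), with 100 reads covering. The group of 6 sites that it belongs to had a median of 0.232 and a median coverage of 34 reads. At 60370597, one of the sites at 1, 11 of 11 reads used were unconverted (0.741 to 1), of 35 covering. The site with the most reads used, 60367780, had 33 of 74 (0.446, 0.338 to 0.559). Of the 10 sites called in both replicates, the highest mean was 0.875 at 60371970, from levels of 0.812 and 0.938 (SD 0.0891, n = 2). Sites 60367780 and 60371970 had 80.4% and 84.2% of covering reads used, and their reference base was not available. The site at 60368926, low-use with a mean of 95 covering reads, had 0.214 and 0.278. The 29 low-use sites of Vsir had a median level of 0.4, and its 90 other sites one of 0.592.

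Cd274 encodes PD-L1, the ligand of the inhibitory T cell receptor PD-1. Its 147 sites lie between 29372513 and 29387876 in the span chr19:29362107-29388095, and 71 of them in the last 5 kb of it. The largest group holds 36 sites over 1288 nt from 29383490. Levels were the lowest of the 7 plus-strand genes at a median of 0.478 (quartiles 0.317 and 0.649), and 29 sites were under 0.3. Among sites with at least 20 covering reads the level was highest at 0.826, from 19 of 23 reads at 29380356 (0.629 to 0.930). The most reads were used at 29385503, with 37 of 75 (0.493, 0.383 to 0.604). Sites 29380356 and 29385503 had 82.1% and 80.65% of covering reads used, and their reference base was not available. Of its 36 low-use sites, with a median level of 0.321, 8 were called in both replicates. At 29384129 these levels were 0.2 and 0.36 at a mean of 57 covering reads, and at 29387785 they were 0.456 and 0.5. The highest mean of a shared site was 0.665, at 29380873, with the wide gap between replicates given above.

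Cd80 encodes B7-1, which engages both the activating receptor CD28 and the inhibitory receptor CTLA-4. It had 10 sites in 2 groups, 2 neighbouring positions at 38474098 and 38474099 and 8 sites from 38486414 to 38486708, in the span chr16:38457430-38495958. No Cd80 site had more than 13 covering reads, none was called in both replicates and none was low-use. Levels ran from 0.273 to 1, on 10 to 12 reads used each. The most reads were used at 38474099, with 4 of 12 (Wilson interval 0.138 to 0.609). The highest level, at 38486691, came from 10 of 10 reads (0.722 to 1). The interval at 38486691 lies above those of 4 other Cd80 sites and overlaps those of the other 5. That site was picked for its high level, so no difference was tested. Pvr encodes CD155, a ligand of the lymphocyte receptors TIGIT and CD226; 0 sites were listed in its span, chr7:19903578-19921143, under any label on either strand.

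Galectins are secreted lectins that bind sugars on T cells, and Lgals1 and Lgals9 encode galectin-1 and galectin-9. Lgals1 is the shortest gene of the set, at 3741 bases (chr15:78926725-78930465), and had the most sites for its length, with 10.2 per kb of span, against 7.11 in Cd47, 6.26 in Sirpa and 5.66 in Cd274. The sites reach from base 31 of the span to 58 bases before its 3' end, in 6 groups. The last group packs 9 sites into 34 nt from 78930374, with a median level of 0.8 and 0 calls in both replicates. A group of 10 sites from 78928572 to 78928876 had a median of 0.714.

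In that group both replicates had a level of 1 at 78928648, with a mean of 11 unconverted reads and 34 covering. At 78928690 the replicates had 0.918 and 1. In contrast, the most covered sites of Lgals1 were near the floor: 78929678 had 11 of 48 reads (0.229, Wilson interval 0.133 to 0.365) with 190 reads covering, and 78929672 had 9 of 41 (0.22, 0.120 to 0.367) with 157. Those intervals do not reach the levels at 78928648, but that site was picked as the highest, so no difference was tested. Low-use positions made up 17 of the 38 sites (44.7%), the highest share among the 7 plus-strand genes, with a median level of 0.538. Lgals9 had 2 sites on the minus strand, each called in 1 replicate, in the span chr11:78962979-78984924. The site at 78963216, 237 bases before the 3' end, had 2 of 10 reads (0.2, 0.0567 to 0.510), and 78966037 had 3 of 10 (0.3, 0.108 to 0.603). Both intervals are wide and overlap.

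Havcr2 encodes TIM-3, a receptor for galectin-9 and phosphatidylserine on T cells and myeloid cells. Its 72 sites, in the span chr11:46454931-46481255, all carry a second label, Mir6989, which RefSeq places on chromosome 19. They fall at both ends of the gene: 18 sites within 161 nt from 46456307, and 51 sites in the last 5 kb, with 3 between. The group near the 5' end had 6 of 18 sites called in both replicates and a median level of 0.418. There, levels at 46456328 were 0.455 and 0.463, and at 46456331 they were 0.832 and 0.846, 3 bases further on. The gap between those 2 positions is larger than the gap between replicates at either. These levels rest on about 10.9 and 11.9 reads used, too few for the replicate gap to measure the spread. The positions were picked after the values were seen, and the difference was not tested. The 26 sites of the last group had a median of 0.517, with 2 shared. The highest shared site of the gene was 46480833, with 0.9 and 0.918 (SD 0.0127, n = 2) and 84.6% of covering reads used. At 46480128, 23 of 27 reads used had cytosine (0.852, Wilson interval 0.675 to 0.941). At 46480173, 45 bases on, 8 of 28 had (0.286, 0.153 to 0.471). The first was picked for its high level, so the gap between these intervals was not a test of a difference. These sites had 84.4% and 90.3% of covering reads used, and their reference base was not available.

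**Figure D4:**
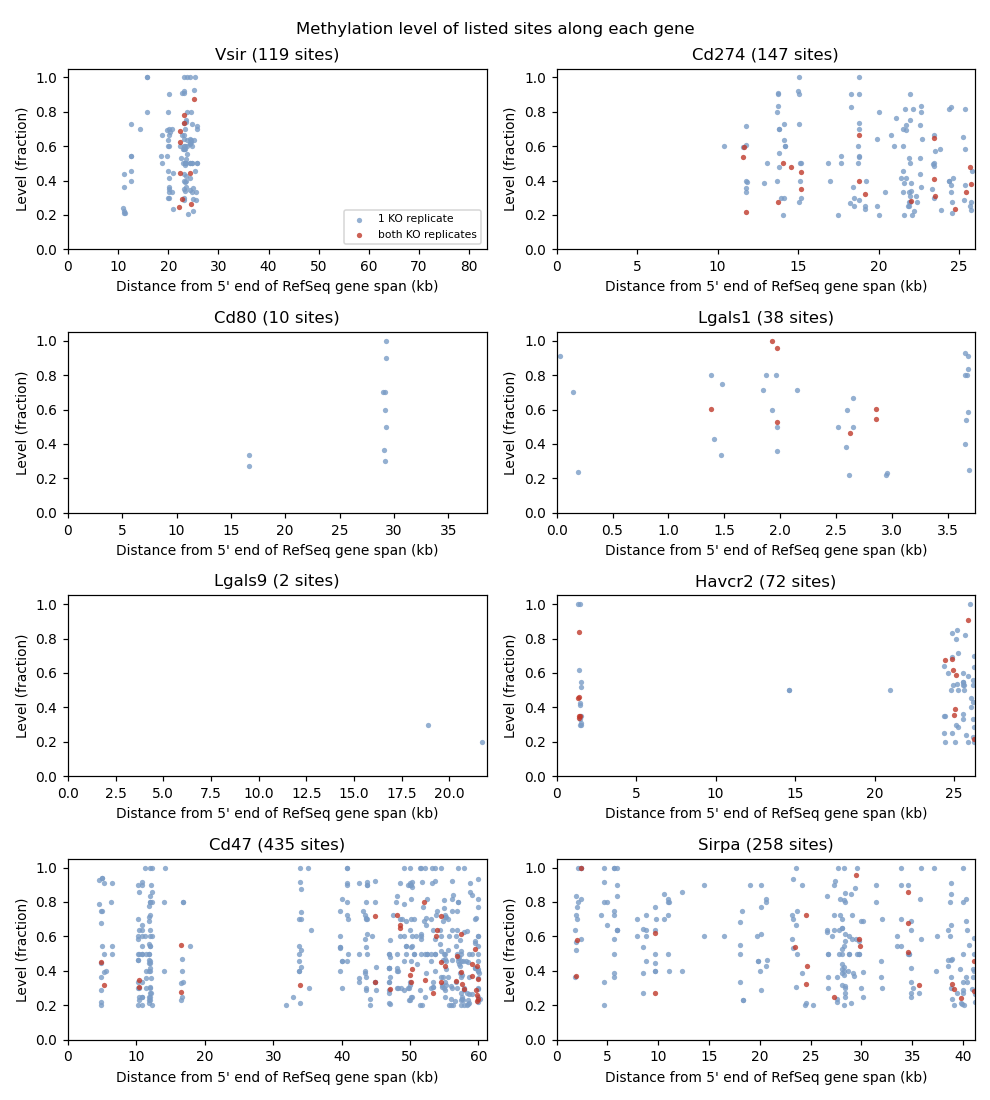
Each panel plots the level (fraction) of a gene's listed sites against the distance in kb from the 5' end of its RefSeq span. Blue marks sites called in 1 KO replicate and red those called in both. Havcr2 sites lie at both ends of the span, Cd274 and Cd47 sites thicken toward the 3' end, and the 119 Vsir sites end 57691 bases before the 3' end of the annotated span.

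Cd47 encodes the "don't eat me" ligand, and its 435 sites were spread over 45 groups between 49855901 and 49911606 in the span chr16:49851328-49912503. The largest group had 41 sites over 1386 nt from 49907889, and others had 38 sites over 462 nt from 49863102 and 35 over 1339 nt from 49905677. In the last 5 kb of the span lay 92 sites (21.1%). Exons were not annotated in the tables used here, so exonic and intronic sites were not told apart. A further 34 positions in the span have no gene label, 14 before the first labelled site and 20 after the last, with a median level of 0.514.

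The median level of Cd47 sites was 0.5 (quartiles 0.333 and 0.7), and 18 sites were at 1. The deepest, at 49867864, had cytosine in 36 of 110 reads used (0.327, Wilson interval 0.247 to 0.420). It had 82.1% of its covering reads used, and its reference base was not available. The highest at 20 or more covering reads was 49909261 with 13 of 13 (0.772 to 1), of 30 covering. Sites called in both replicates had a lower median, 0.373 over 40 sites, against 0.5 over the rest. The highest of them was 49903302, with 0.789 and 0.811 at a mean of 46 covering reads (SD 0.0156, n = 2). It had 81.5% of its covering reads used, and its reference base was not available either. Low-use shared sites were found both high and low: 49905806 had 0.667 and 0.765, 49899455 had 0.7 and 0.75, and 49911046 had 0.222 and 0.232 at a mean of 56 covering reads. The difference between the first and the last of these is larger than the spread between replicates at either. These sites were picked after the values were seen, and the difference was not tested.

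Sirpa encodes SIRPα, the CD47 receptor of phagocytes. Its 258 sites lie in 46 groups from 129592898 to 129632193, reaching to 35 bases before the 3' end of the span chr2:129591042-129632228. The group with the most sites had 32 over 805 nt from 129618660. The median level was 0.571 (quartiles 0.385 and 0.727). The most reads were used at 129631978, with 41 of 112 (0.366, Wilson interval 0.283 to 0.458). The nearby site 129631326 had 75 of 109 (0.688, 0.596 to 0.767), an interval that does not overlap the first. It was picked after the values were seen, so the difference was not tested. The highest at 20 or more covering reads was 129620443, with 15 of 17 (0.882, 0.657 to 0.967). Sites 129631978 and 129620443 had 80% and 80.95% of covering reads used, and their reference base was not available. At 129593448 both replicates had a level of 1, with a mean of 10 unconverted reads and 18 covering. A shared low-use site near the 3' end, 129630852, had 0.231 and 0.249 at a mean of 43 covering reads. Cd200 encodes a ligand that restrains myeloid cells through CD200R; 0 sites were listed in its span, chr16:45382111-45409060, on either strand.

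The members' sites stood somewhat less often in runs than the list as a whole. Another listed site lay within 10 nt for 65.2% of them, against 70.3% of all sites, and 13.3% had a listed neighbour at the next base, against 17.6%. Vsir, with 49.6% of its sites in runs, and Cd274, with 57.1%, were below the lower quartile of plus-strand genes, 62.5%. Lgals1, at 73.7%, and Havcr2, at 76.4%, were above the median of 70%. These differences were not tested.

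The other genes of these pathways were counted from a list of 95 genes in 5 roles. Sites were listed in 52 of the 95 (54.7%), with the background at 34.2% of protein-coding genes, and 37 of the 52 were plus-strand genes. The expression of genes without a site is not in the table and was not accounted for. Other T cell co-signalling ligands had sites in 7 of 21 genes, led by Cd48 (239 sites), Lgals3 (139), which encodes galectin-3, and Icosl (137), the ICOS ligand gene. Pdcd1lg2, the gene of the other PD-1 ligand PD-L2, had 28 sites with a median level of 0.523. Lymphocyte co-signalling receptors had sites in 3 of 17 genes: Cd244a, the receptor for CD48 (134 sites), Cd28 (67) and Tnfrsf4 (12). Pdcd1, Ctla4, Lag3 and Tigit had 0. These counts stand beside the 1 of 9 T and NK markers with sites given above, whose part was not tested.

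Phagocytosis-restraining genes had sites in 7 of 11, with Cd200r4 (217 sites), Cd300a (70) and Cd200r1 (58) at the top; Cd200r1 encodes the receptor of the CD200 ligand, whose own gene had none listed. Phagocytosis-promoting genes had sites in 12 of 17. The integrin genes Itgam and Itgb2, which form the complement receptor CR3, had 158 and 115, and Thbs1, whose product binds CD47, had 189. Calr, the gene of the "eat me" signal calreticulin, had 1, on the minus strand, with a level of 0.2. Signal transducers and genes that make or process these proteins had sites in 23 of 29. Inpp5d, the gene of the phosphatase SHIP1, had 209, Hip1r 192 and the kinase gene Syk 164. Cmtm6, whose product keeps PD-L1 at the surface, had 71 sites with a median level of 0.545. The kinase gene Jak2, which acts in interferon signalling upstream of PD-L1, had 160, whereas Jak1, on the minus strand, had 1. Median levels over the genes of a role with sites ran from 0.347 among phagocytosis-promoting genes, 7 of whose 12 genes with sites are on the minus strand, to 0.5 among ligands, receptors and transducers.

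**Figure D5:**
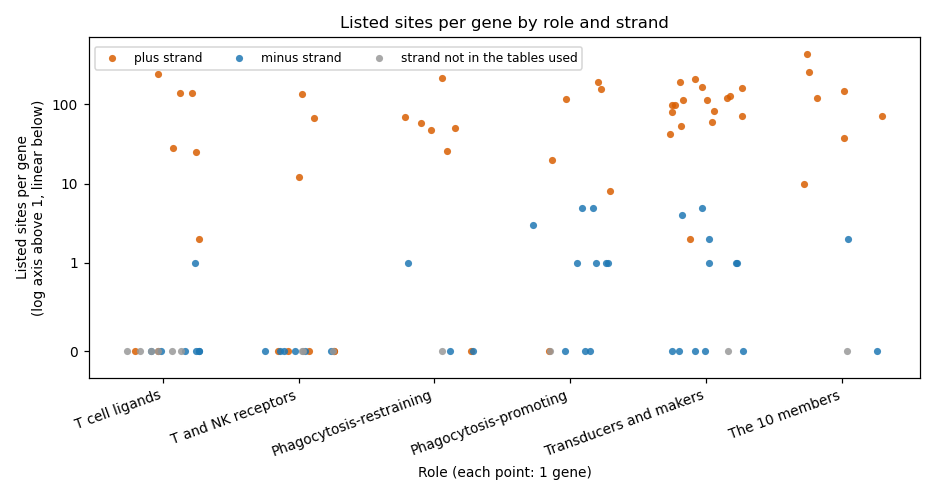
Each point is a gene, placed by role on the horizontal axis and by its number of listed sites on the vertical axis (log above 1, linear below), orange for the plus strand and blue for the minus strand. Among the genes shown, those on the minus strand hold from 0 to 5 sites, while Cd47 among the members reaches 435.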

How the data were processed

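Libraries were grouped by the genotype label (2 WT, 2 Tet2 KO), and the only table used lists positions of the KO. The build mm10 is given in the submitters' processing notes; no source used here names the aligner or the site caller. Per the file headers, the authors deposited for each position the covering reads and unconverted cytosines, here treated as a score because they are the authors' rounded means where both replicates made the call, and the level as a fraction averaged over calling replicates. In the authors' deposited table the combined p-values reached 0.000114 for the state and 0.0773 for the rate; they served as a threshold in an alternative. Their normalized coverage was not used. There were 0 columns of another series.

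Reads used were computed as unconverted reads divided by the level, which gave whole numbers at 100% of sites with 1 call (tolerance 0.0006 in level); at shared sites they are approximate, being a ratio of rounded means. The deposited SD was read as a population SD: the mean plus the SD equalled 1 (tolerance 0.0011) at 3604 shared sites with an SD above 0, against 0 with the other divisor, so that both replicate levels follow from mean and SD. Printed SDs are sample SDs. Groups of sites are parted by over 200 nt, and runs are sites within 10 nt of another. Positions count from 1, since 0 plus-strand sites then fall on thymine. Of 7822 labels, 7806 matched a RefSeq symbol or synonym (assembly GRCm38.p6). Intervals are at 95%.

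The members and gene lists were chosen with earlier results of these data known. All 10 members are named; of each, the site highest in level among those with at least 20 covering reads, that with the most reads used and the highest shared site, and of each role the 3 genes with the most sites. Other named sites and genes, and the limit of 75% of reads used, were chosen after the values were seen. No test was made, as no WT or single-library values are in the table. Reads used at sites with 1 call, runs, the split of labels and replicate levels from mean and SD were checked on simulated sites. The last holds by definition, and the other steps were not checked in this way. Alternatives were coverage minimums of 20, 30 and 50 reads, 20 or more reads used, shared sites, sites outside runs, a state p of 1e-06 or less, sites with 1 label and low-use sites. Python 3.11.15, pandas 2.3.3, NumPy 2.4.6, SciPy 1.17.1 and matplotlib 3.10.9 were used.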

Additional observations from a re-analysis of the deposited data

How the results depend on the processing

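The number of member sites fell from 1081 to 368, 167 and 49 at coverage minimums of 20, 30 and 50 reads, to 165 with 20 or more reads used, to 112 for sites called in both replicates, to 376 outside runs and to 288 for low-use positions, the last chosen after the data were examined. The median level, 0.5 as reported, was 0.451, 0.409 and 0.366 at the 3 coverage minimums, 0.444 with 20 or more reads used, 0.442 for shared sites, 0.545 at the stricter p and 0.455 for low-use positions. The share called in both replicates, 10.4% as reported, was 14.1%, 18.0% and 20.4% at the 3 coverage minimums, 14.5% with 20 or more reads used and 18.4% for low-use positions. At 50 covering reads, 5 members and 32 genes of the pathway list had a site, against 8 and 52. With 1 label required, Havcr2 lost its sites. Of 59 gene medians recomputed, 36 stayed within the 95% interval of the reported median, 22 fell below it and 1 rose above it. Fewer sites pass each stricter rule by construction; the cause of the shifts in level was not tested. Reads per site limit single levels: on 10 reads, 2 unconverted reads allow 0.0567 to 0.510. No paired analysis was possible because the table holds no WT values and no value tied to a numbered replicate; for the same reason replicates could not be left out in turn.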

Other observations

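The reference base of listed positions near gene starts moved with depth and with replication. Among the 598 plus-strand positions there with 20 or more reads used, 9.36% were cytosines, against 51.9% of all 5942. With 50 or more covering reads it was 37.5% of 128 positions. Among the 847 positions called in both replicates 68.6% were cytosines, and 63.3% of the 199 that were also outside runs. The median level was 0.7 on cytosines, 0.667 on guanines and 0.6 on adenines. Of the 144 minus-strand positions in the same windows, 90.3% had a guanine on the plus strand, which is a cytosine on their own strand. The members' sites with the most reads used in Vsir, Cd274, Cd47 and Sirpa each had at least 80% of their covering reads used, and their reference base is not in the tables used here.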
